A study of Mus musculus with 6 samples.

Results

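The anaphase-promoting complex or cyclosome (APC/C) is the ubiquitin ligase that ends mitosis, and its activators, inhibitors and core subunits were followed here as 10 genes. The list was chosen by gene family with the LRC and non-LRC expression values of these same samples in view, Cdc20 being noted for groups that did not overlap, so the genes' differences are given as a description with no test. Members are the probe sets whose single gene symbol in the array annotation was Cdc20, Fzr1, Fbxo5, Ube2c, Pttg1, Cdc16, Cdc23, Cdc26, Cdc27 or Anapc1. All 10 genes had such probe sets, 27 of the 45037 probe sets tested, out of 18193 genes with a probe set of their own. Fzr1, Fbxo5 and Ube2c had 1 probe set each, Cdc16 had 2, Cdc20, Pttg1 and Cdc23 had 3, Cdc26 and Cdc27 had 4 and Anapc1 had 5.

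The cells were haematopoietic stem cells (HSCs) from the bone marrow of SCL-tTA H2B-GFP mice. In this line the transactivator tTA-S2, expressed from the endogenous scl (Tal1) locus, drives a histone H2B green fluorescent protein that doxycycline turns off and that dividing cells then dilute. The locus limits the label to stem and progenitor cells. All 6 samples were collected after 170 days of doxycycline and were gated as Sca1+, cKit+ and CD150+ cells without CD34, CD48 or lineage markers. The 3 LRC (label-retaining) samples were GFP-positive and the 3 non-LRC samples were GFP-negative. The labels call the samples of each condition independent, and the age of the mice and any pooling are not given in the sources used here. Each sample was hybridized to 1 array, and all values are log2 expression values, given below in the order of replicates 1 to 3.

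The APC/C tags cyclins and other mitotic proteins for destruction by the proteasome. Cdc20 switches it on in mitosis, where cyclin B and securin are destroyed and sister chromatids part, and Cdh1, the product of Fzr1, keeps it active from mitotic exit through G1. Emi1, the product of Fbxo5, holds it off while DNA replicates. In quiescent cells the complex with Cdh1 is known to keep cell cycle proteins low. Mitotic transcripts such as Cdc20 are made late in the cell cycle.

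The populations and arrays were first checked on the whole table. Kit, a receptor of the gate, averaged 9.07 ± 0.07 over the LRC arrays and 9.05 ± 0.06 over the non-LRC arrays (SD, n = 3 each). Slamf1, the gene of CD150, varied more, at 7.61 ± 1.30 in LRC and 7.98 ± 0.68 in non-LRC by its brightest probe set. LRC replicate 1 was its lowest array, at 6.24. Cd48, absent from the gate, was at 2.60 ± 0.25 and 2.73 ± 0.48, where the lower quartile of an array lay between 2.82 and 3.02. Cd34, also absent from the gate, lay above that range on 5 arrays and was at 2.52 on LRC replicate 1. This array stood apart, with correlations of 0.901 to 0.919 with the others, where the remaining pairs ran from 0.919 to 0.970. The spiked-in hybridization controls averaged 11.24 on LRC replicate 1 and 11.02 on LRC replicate 3, above the 10.58 to 10.70 of the other arrays. The 3' minus 5' signal of Gapdh, a measure of RNA integrity, was 4.16 on LRC replicate 1 and 2.72 to 3.42 elsewhere. That of Actb set another array apart, at -0.61 on LRC replicate 3, -0.04 on LRC replicate 1 and -0.23 to -0.13 elsewhere. Of 32 measured markers of other marrow lineages 18 had a lower mean in LRC. The mean of these markers was 4.47 to 4.71 in LRC and 4.71 to 5.12 in non-LRC. Granulocyte and monocyte markers had a lower LRC mean in 4 of 6, with list means of 5.16 to 6.72 in LRC and 6.28 to 7.16 in non-LRC, and T and NK cell markers in 1 of 4, with 3.14 to 3.52 and 3.07 to 3.88. Erythroid markers had a lower LRC mean in 3 of 4 (median difference -0.61), endothelial in 4 of 5 (-0.57) and megakaryocyte in 4 of 5 (-0.28). B cell markers had it in 1 of 4 (0.07) and stromal in 1 of 4 (0.12). The part of array, RNA quality and other cells in the values below was not tested, and in bulk samples fewer cycling cells cannot be told apart from less RNA per cell.

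Across all probe sets limma called 0 of 45037 (0%) at an adjusted p under 0.05. The smallest adjusted p was 0.658, and 1673 probe sets (3.71%) had an unadjusted p under 0.05. Where a gene had several probe sets, the brightest, with the highest mean over the 6 arrays, stood for it. For Cdc20 and Anapc1 this choice rested on the non-LRC arrays. In LRC alone 1416664_at of Cdc20 was brighter than the chosen 1439377_x_at (mean 5.85 against 5.24). Likewise 1415680_at of Anapc1 was brighter there than the chosen 1434443_at (7.27 against 6.91). By the brightest probe set 7 of the 10 APC/C genes had a lower mean in LRC, where 45.1% of all genes did. The median difference, LRC minus non-LRC, was -0.34 over the 10 genes and 0.03 over all genes. In 1 of the 10, Cdc20, the highest LRC value was under the lowest non-LRC value, a pattern of 3.62% of all genes. The opposite pattern was found in 0 of the 10 and in 4.71% of all genes. Without LRC replicate 1 the genes with a lower mean numbered 5 (all genes, 51.6%) and the median difference was -0.024. Groups then did not overlap for 3, Cdc20, Cdc23 and Cdc26, all lower in LRC, against 8.71% of all genes in that direction.

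**Figure D1:**
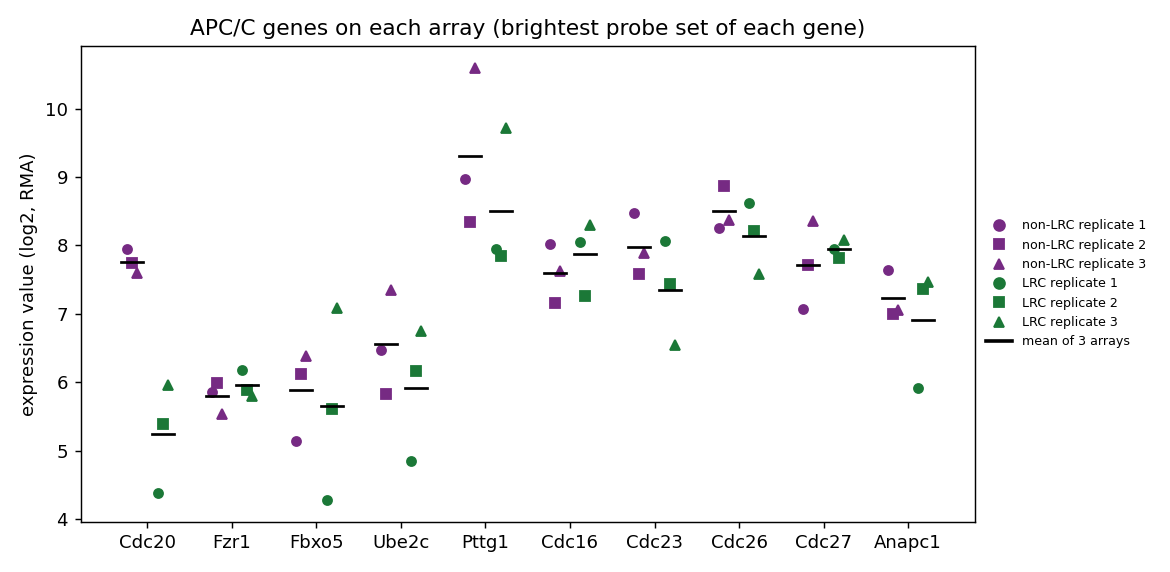
Log2 expression values (y axis) of the 10 APC/C genes (x axis) on each of the 6 arrays, by the brightest probe set of each gene; colours give the group, symbols the replicate and black bars the mean of 3 arrays. Only for Cdc20 do the LRC arrays (4.38 to 5.96) all lie below the non-LRC arrays (7.60 to 7.94).

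Cdc20, the activator of the APC/C in mitosis, lies on chromosome 4 and had the widest gap among the 10 genes. Its brightest probe set, 1439377_x_at, was at 7.94, 7.74 and 7.60 in non-LRC replicates 1 to 3 and at 4.38, 5.39 and 5.96 in LRC replicates 1 to 3. All LRC arrays were low and the non-LRC arrays lay close together, at 5.24 ± 0.80 against 7.76 ± 0.17 (SD, n = 3 each). The difference was -2.52 (SE 0.41), a 5.74-fold lower level in LRC. Without LRC replicate 1, the lowest array, it was -2.09.

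The other probe sets of Cdc20 gave smaller differences. Probe set 1439394_x_at read 6.02, 5.41 and 5.76 on the non-LRC arrays and 5.34, 5.09 and 5.01 on the LRC arrays. Its groups did not overlap either, although LRC replicate 1 lay close to non-LRC replicate 2, and the difference was -0.58 (SE 0.23). Probe set 1416664_at read 6.15, 5.71 and 5.78 on the non-LRC arrays and 6.20, 5.82 and 5.52 on the LRC arrays. Its groups overlapped, and the difference was -0.033 (SE 0.25). LRC replicate 1 was the lowest LRC array by 1439377_x_at and the highest by both other probe sets. The array annotation gives all 3 probe sets to Cdc20 alone, while the suffix x marks probes that can bind other transcripts. The mean of the 3 probe sets differed by -1.05 and its groups did not overlap. The size of the Cdc20 difference thus depended on the probe set, from a value near 0 to 5.74-fold.

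**Figure D2:**
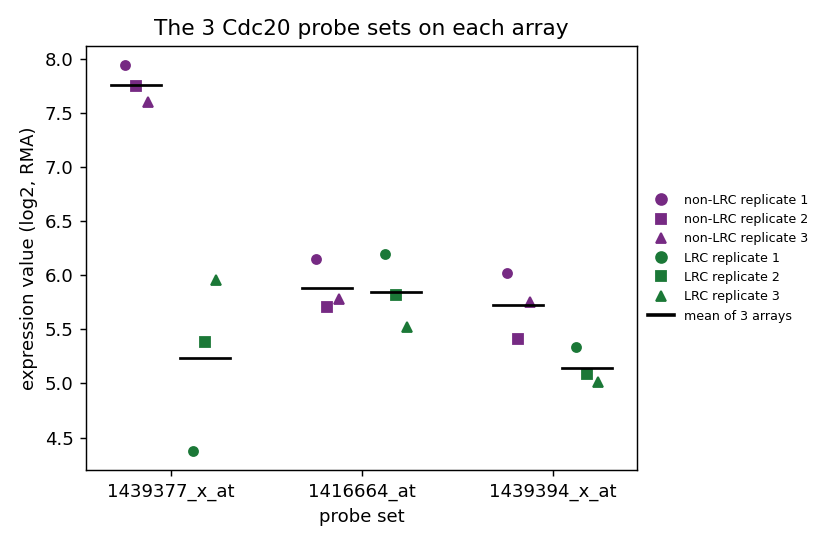
Log2 expression values (y axis) of the 3 Cdc20 probe sets (x axis) on each array; colours give the group, symbols the replicate and black bars the mean of 3 arrays. The differences are -2.52 for 1439377_x_at, -0.58 for 1439394_x_at and -0.033 for 1416664_at.

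Genes of late cell cycle phases are known to share a cell cycle genes homology region (CHR) and CCAAT boxes near the start site. Promoter windows of 9 of the 10 genes were searched for these motifs. Printed here are the 3 windows with a CHR match. They belong to Cdc20, to Ube2c, the ubiquitin-conjugating enzyme that works with it, and to Fbxo5, the inhibitor whose groups overlapped. Sequences are RefSeq's for mouse build GRCm38.p6, from 250 bases before to 50 after the start, on the strand of the gene. The printed windows span chr4:118437294-118437593 (minus strand) for Cdc20, chr2:164769679-164769978 (plus strand) for Ube2c and chr10:5805416-5805715 (minus strand) for Fbxo5. Capitals mark the CHR (TTTGAA, or TTCAAA where it is read on the other strand) and CCAAT boxes (CCAAT or ATTGG).
Cdc20: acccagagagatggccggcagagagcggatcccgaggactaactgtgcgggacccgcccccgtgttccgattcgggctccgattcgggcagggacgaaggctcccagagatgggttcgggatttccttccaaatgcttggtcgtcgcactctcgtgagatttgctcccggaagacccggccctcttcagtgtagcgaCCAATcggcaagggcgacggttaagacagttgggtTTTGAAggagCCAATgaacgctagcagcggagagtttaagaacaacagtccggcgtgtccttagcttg
Ube2c: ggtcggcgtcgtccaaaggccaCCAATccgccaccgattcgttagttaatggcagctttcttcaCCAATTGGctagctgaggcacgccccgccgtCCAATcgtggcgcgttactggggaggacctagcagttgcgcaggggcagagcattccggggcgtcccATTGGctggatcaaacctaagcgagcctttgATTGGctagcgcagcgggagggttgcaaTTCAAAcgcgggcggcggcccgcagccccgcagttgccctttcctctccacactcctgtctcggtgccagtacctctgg
Fbxo5: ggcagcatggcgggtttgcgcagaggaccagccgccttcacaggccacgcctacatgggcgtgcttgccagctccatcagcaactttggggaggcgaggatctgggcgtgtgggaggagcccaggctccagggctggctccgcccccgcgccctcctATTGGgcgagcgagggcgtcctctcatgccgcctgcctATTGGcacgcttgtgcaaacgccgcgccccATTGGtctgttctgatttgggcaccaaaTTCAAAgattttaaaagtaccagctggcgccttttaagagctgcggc

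In Cdc20 the CHR lay 18 to 13 bases before the start, between CCAAT boxes at 53 to 49 and 8 to 4 bases before it. Ube2c held 1 CHR on the other strand, 29 to 24 bases before the start, and 6 CCAAT boxes, of which 2 shared bases. Fbxo5 held 1 CHR, on the other strand at bases 4 to 9 after the start, and 3 CCAAT boxes. Of the 9 members with a window these were the 3 with a CHR in either of its forms, TTTGAA or TTCGAA, and 5 had a CCAAT box. Over both strands of all 32851 windows 19.2% held either CHR form (17.9% TTTGAA, 1.56% TTCGAA), 37.4% a CCAAT box and 7.52% both. The windows of Pttg1, Cdc16, Cdc26 and Anapc1 held neither motif, and those of Cdc27 and Fzr1 held CCAAT boxes only. A match describes the letters of the window and no factor's binding was measured. Of the 3 genes with a CHR, Cdc20 by its brightest probe set had groups that did not overlap, and Ube2c and Fbxo5 had groups that did.

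**Figure D3:**
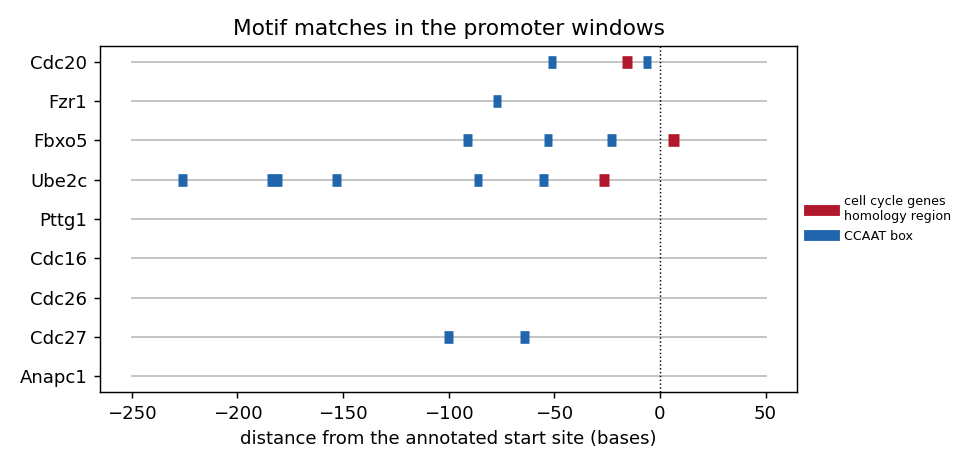
Matches of the CHR (red) and the CCAAT box (blue) on either strand in the promoter windows of 9 of the 10 genes (rows), by distance from the annotated start site in bases (x axis; dotted line, start site). Cdc20, Ube2c and Fbxo5 hold both motifs, with the CHR within 29 bases of the start.

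Fzr1 encodes Cdh1, the activator that keeps the APC/C on in G1 and in resting cells. Its probe set read 5.86, 5.99 and 5.53 on the non-LRC arrays and 6.17, 5.88 and 5.80 on the LRC arrays. The groups overlapped, with LRC replicate 1 highest. The difference was 0.16 (SE 0.21), and the spread within groups was small (SD 0.22, where the median gene had 0.35). That difference was smaller than its error.

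Fbxo5 encodes Emi1, which blocks the APC/C from late G1 into mitosis. It read 5.15, 6.12 and 6.38 on the non-LRC arrays and 4.28, 5.61 and 7.09 on the LRC arrays. The LRC arrays held both the lowest and the highest value. The difference was -0.22 (SE 0.73), and it turned to 0.47 without LRC replicate 1 and to 0.026 without non-LRC replicate 3. Its SD within groups, 1.10, exceeded that of 94.4% of all probe sets.

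Ube2c encodes UbcH10, the ubiquitin-conjugating enzyme that works with the complex. It read 6.47, 5.83 and 7.35 on the non-LRC arrays and 4.85, 6.17 and 6.74 on the LRC arrays. Only LRC replicate 1 lay below the non-LRC range. The difference was -0.63 (SE 0.59), and it was -0.096 without LRC replicate 1.

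Pttg1 encodes securin, which holds separase inactive until the APC/C destroys it. Its brightest probe set read 8.96, 8.34 and 10.60 on the non-LRC arrays and 7.95, 7.84 and 9.72 on the LRC arrays. LRC replicates 1 and 2 lay below all non-LRC arrays, and LRC replicate 3 within their range. The difference was -0.80 (SE 0.74), with -0.46 (SE 0.23) and -0.15 (SE 0.55) by its other probe sets, so all 3 had the same sign. Without non-LRC replicate 3, its highest array, the difference was -0.15.

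Ube2c, Fbxo5 and, by its brightest probe set, Pttg1 were all highest on replicate 3 within each group. By the other Pttg1 probe sets the highest non-LRC array was replicate 1. Mki67, the proliferation antigen, was also highest on replicate 3 within each group. It read 10.13, 9.78 and 10.78 on the non-LRC arrays and 7.70, 9.95 and 10.05 on the LRC arrays. The labels do not say whether a replicate number marks a shared sort or day. LRC replicate 1 was the lowest of the 6 arrays for Cdc20 by its brightest probe set, for Ube2c, for Fbxo5 and for Mki67. Without it the other LRC arrays lay inside the non-LRC range for Mki67 and Ube2c, and remained below it for Cdc20.

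The 5 core subunits varied less within groups than the regulators did, with a median SD of 0.49 against 0.87 over Cdc20, Fzr1, Fbxo5, Ube2c and Pttg1, where all genes had 0.35. The groups overlapped for all 5 subunits by their brightest probe sets. Their median difference was -0.32 and their differences ran from -0.64 to 0.27.

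Cdc16, Cdc23 and Cdc27 are the repeat-bearing subunits that form the arm on which activators dock. Cdc16 read 8.01, 7.16 and 7.63 on the non-LRC arrays and 8.04, 7.25 and 8.30 on the LRC arrays, a difference of 0.27 (SE 0.36). LRC replicates 1 and 3 lay above all non-LRC arrays and LRC replicate 2 near the lowest of them. Cdc23 read 8.48, 7.58 and 7.88 on the non-LRC arrays and 8.07, 7.43 and 6.54 on the LRC arrays, a difference of -0.64 (SE 0.44). Here LRC replicate 1 alone lay among the higher non-LRC values. A further Cdc23 probe set, 1433430_s_at, differed by -0.57 (SE 0.29), with LRC replicate 2 inside the non-LRC range, and the third, at 2.17 to 2.58, lay at the low end of the arrays. The mean of the 3 Cdc23 probe sets was 5.89, 5.59 and 5.71 in non-LRC and 5.46, 5.44 and 4.98 in LRC, so that by this measure its groups did not overlap, as for 3.19% of all genes with LRC lower.

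Cdc27 by its brightest probe set read 7.07, 7.71 and 8.36 on the non-LRC arrays and 7.95, 7.81 and 8.08 on the LRC arrays, with LRC inside the non-LRC range and a difference of 0.24 (SE 0.34), which turned to -0.085 without non-LRC replicate 1. Its probe sets disagreed: 1426076_at differed by -1.23 (SE 0.70) and 1433848_at by 0.74 (SE 0.65). Cdc26, a small subunit that steadies Cdc16, read 8.25, 8.87 and 8.37 on the non-LRC arrays and 8.62, 8.21 and 7.58 on the LRC arrays, a difference of -0.36 (SE 0.33). LRC replicates 2 and 3 lay below the non-LRC range and replicate 1 within it. Its probe set 1456860_at ran from 2.92 to 7.16 on the LRC arrays and from 3.08 to 5.80 on the non-LRC arrays, and its SD within groups, 1.95 over both, exceeded that of 99.8% of all probe sets.

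Anapc1, the largest scaffold subunit, had 5 probe sets with differences from -0.32 to 0.58, 2 above 0 and 3 below. The brightest read 7.64, 6.99 and 7.06 on the non-LRC arrays and 5.91, 7.36 and 7.47 on the LRC arrays. LRC replicate 1 was low and the other LRC arrays lay within the non-LRC range, for a difference of -0.32 (SE 0.46), which turned to 0.18 without LRC replicate 1. Probe set 1415680_at, nearly as bright, differed by 0.58 (SE 0.39) in the other direction. Over all 27 probe sets of the 10 genes 17 had a lower mean in LRC, where 44.7% of all probe sets did, and 2, both of Cdc20, had all LRC values lower without overlap, against 3.4% of all probe sets. None of the 27 had all LRC values higher, against 4.88%.

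**Figure D4:**
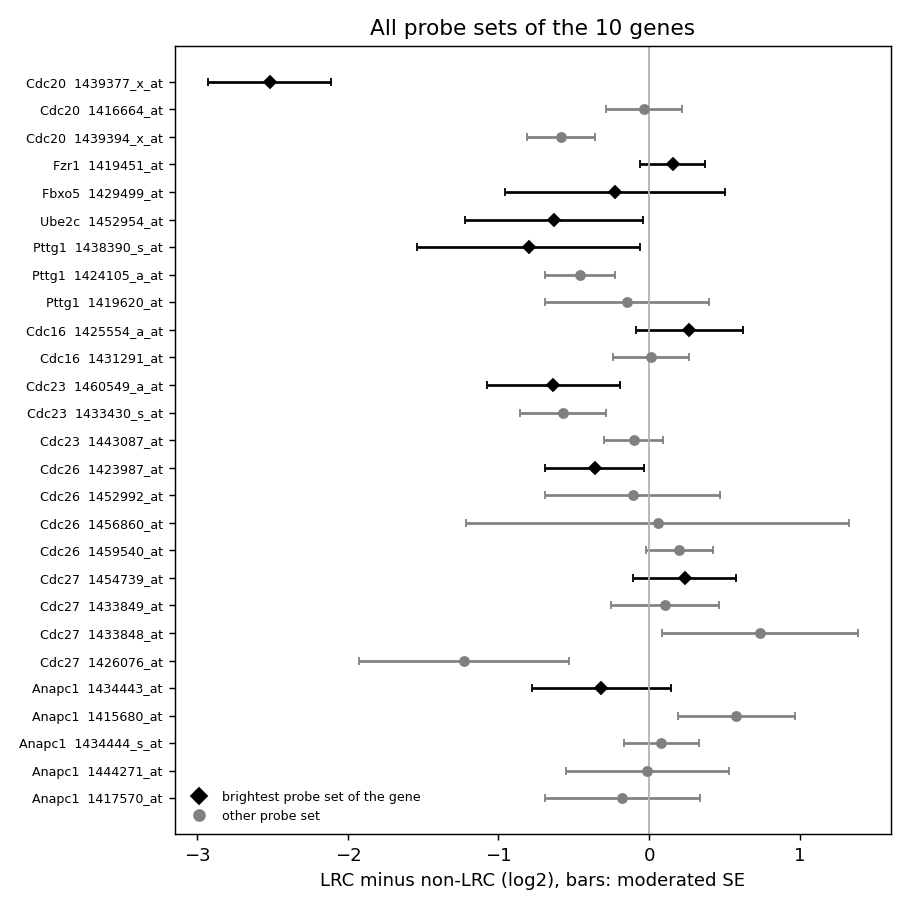
Difference between LRC and non-LRC (x axis, log2) with its moderated standard error for each of the 27 probe sets (rows); diamonds mark the brightest probe set of each gene. The value of -2.52 for 1439377_x_at of Cdc20 lies far to the left of the rest, which run from -1.23 to 0.74.

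The rest of the complex was read from a list of its other subunits. Of 9 such genes, limma called 0 higher and 0 lower in LRC. Their median difference was 0.12, with 6 higher and 3 lower means. Anapc15, a subunit that promotes release of the checkpoint complex, had LRC values of 7.58, 7.90 and 6.21 under a non-LRC mean of 8.12 ± 0.16, a difference of -0.89 (SE 0.45, limma adjusted p = 0.998). It was the 1 of 9 with all LRC values lower, where 3.62% of all genes had that, and its 3 other probe sets had overlapping groups, with differences of -0.13, -0.079 and 0.45. Anapc7, another repeat-bearing subunit, differed by -0.44 (SE 0.23), Anapc11, the RING subunit that binds the E2 enzyme, by 0.63 (SE 0.35), and Anapc16 by 0.42 (SE 0.49). The median difference of these subunits turned to -0.021 without non-LRC replicate 2.

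Of 9 further cofactors and inhibitors limma also called 0 higher and 0 lower, with a median difference of -0.11. By their brightest probe sets none had all LRC values below all others. When LRC replicate 2 was left out 3 did, where 9.84% of all genes had all LRC values lower. Mad2l2, an inhibitor of the Cdh1 form, differed by -1.10 (SE 0.59) with overlapping groups. Bub3, of the mitotic checkpoint complex that restrains Cdc20, differed by -0.41 (SE 0.26) by its brightest probe set. Its 4 dimmer ones ran from -1.14, with all LRC values lower, to 0.60, with all LRC values higher. Ube2s, the E2 enzyme that extends ubiquitin chains, differed by -0.37 (SE 0.40), and Fbxo43, the relative of Emi1 that acts in oocytes, by 0.26 (SE 0.22) at the low end of the arrays.

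Proteins that the APC/C is known to destroy were encoded by 23 measured genes of a list of 24. Limma called 0 of them, 6 had an unadjusted p under 0.05 (all genes, 3.75%), 18 had a lower mean in LRC, and the median difference was -0.45. Groups did not overlap in 7, all lower in LRC: Ccna2, Cdc6, Gmnn, Cdca3, Bub1, Cdc25a and Anln. The comparable share of all genes was 3.62%. Without LRC replicate 1 there were 15 with a lower mean and 8 without overlap, where 8.71% of all genes had all LRC values lower. Without non-LRC replicate 2 there were 11 without overlap, where 8.1% of all genes had that. These genes share the same 6 arrays, and they are known to be transcribed together in cycling cells. The list was chosen with earlier results of these data known, so its counts are a description and no test of the list.

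Cdc25a, the phosphatase that activates cyclin-dependent kinases, read 7.26, 7.23 and 7.03 on the non-LRC arrays and 6.54, 6.33 and 5.86 on the LRC arrays, a difference of -0.93 (SE 0.23, limma adjusted p = 0.998). Its dimmer probe sets disagreed, one with all LRC values lower (-0.39) and one with all LRC values higher (0.40). Bub1, the checkpoint kinase, differed by -1.03 (SE 0.29), Gmnn, the inhibitor of relicensing, by -1.17 (SE 0.35) and Cdc6, the licensing factor, by -1.76 (SE 0.56), each with the same adjusted p. The LRC values of Bub1, 2.54, 2.81 and 2.66, lay under the lower quartile of their arrays. Its dimmer probe set differed by 0.22 with overlapping groups. Substrates with higher means in LRC included Plk1, the mitotic kinase that starts the destruction of Emi1, chosen here after its values were seen. It read 4.42, 4.11 and 5.50 on the non-LRC arrays and 5.19, 5.18 and 6.03 on the LRC arrays, a difference of 0.79 (SE 0.43).

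**Figure D5:**
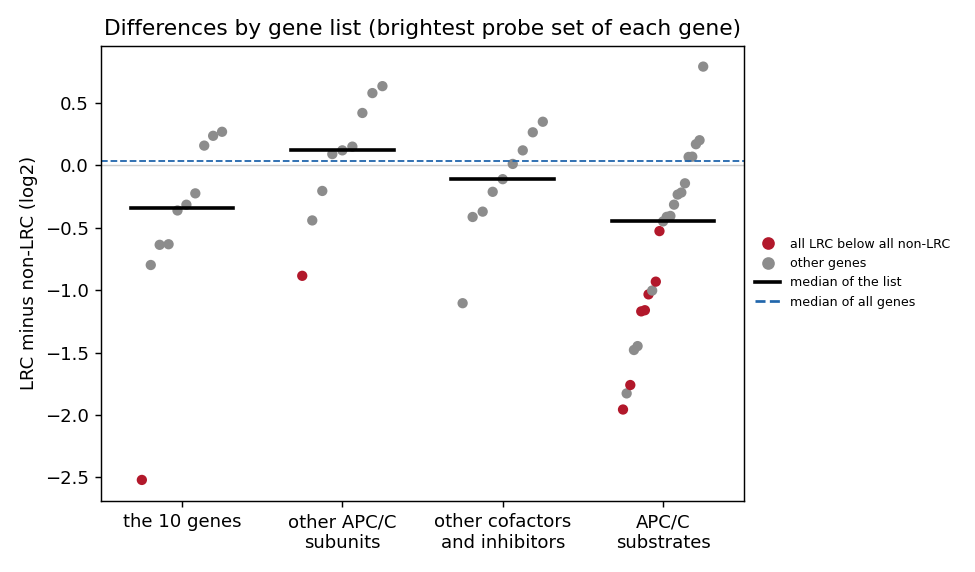
Difference between LRC and non-LRC (y axis, log2) of each gene by its brightest probe set, for the 10 genes and for the lists of other subunits, other cofactors and inhibitors, and substrates (x axis); red points have all LRC values below all non-LRC values, black bars are list medians and the dashed line is the median of all genes. List medians are -0.34, 0.12, -0.11 and -0.45, and the red points number 1, 1, 0 and 7.

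Likeness to Cdc20 was measured over the 6 arrays as the root mean square difference between profiles, each centred on its own mean, among 51 genes (the 9 other members, the further lists and Mki67). The most alike were Ccna2, cyclin A2 (0.62), Cdc6 (0.82), Cdca3, a trigger of mitotic entry (0.87), Bub1 (0.88) and Rrm2, the ribonucleotide reductase subunit (0.91), all of them from the substrates, which made up 23 of the 51. The measure is not scaled, so genes with a wide gap between groups come first when the profile is that of 1439377_x_at, whose gap is wide. With the other Cdc20 probe sets other genes came first, led by Cks1b (0.22) for 1439394_x_at and by Mad2l1bp (0.15) for 1416664_at, a comparison added after seeing the data. Ccna2 read 8.79, 7.20 and 8.60 on the non-LRC arrays and 4.99, 6.87 and 6.85 on the LRC arrays. Its LRC replicate 1 was lowest, as for Cdc20, but LRC replicate 2 lay much closer to the lowest non-LRC array. Among the 10 genes themselves Ube2c was nearest to Cdc20, at rank 11 of the 51 with a difference of 1.07.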

How the data were processed

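Expression was measured on 6 Affymetrix arrays, 3 LRC and 3 non-LRC HSC samples. Per the labels' protocols RNA was amplified in 2 rounds before biotin labelling. The deposited values are log2 values, 1 per probe set and array, made by the authors with RMA, per the submitters' processing notes. The log base was read from the range of the values, and the software, background model and version are not given in the sources used here. RMA makes array distributions alike, so a change in total RNA per cell cannot be seen. Arrays have no read depth, so precision rests on 3 arrays a group.

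Of 45101 probe sets 64 controls were left out. Of the rest 34945 had 1 gene symbol, 932 several and 9160 none. Symbols came from the array platform's annotation, checked against RefSeq gene identifiers (GRCm38.p6), which altered 0 of them. Ccnb1 and 6 marker genes had no probe set of their own symbol and are not analysed here. Columns of other samples numbered 0. A linear model of LRC minus non-LRC with no covariate was fitted to all probe sets in limma 3.58.1 (R 4.3.3) with empirical Bayes moderation, with Benjamini-Hochberg adjustment and a threshold of 0.05, and was first tested on simulated data. Errors of differences are its moderated standard errors. P-values set the difference between groups against the spread between samples within them.

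The members and lists were chosen with earlier results of these data known, so no p-value is given for the members and none for a list. Genes named are all members, up to 4 of each further list by smallest p, Mki67, genes of the gate, and the 5 most like Cdc20. Outside this rule Plk1, Anln, Cks1b and Mad2l1bp were chosen after their values were seen. Alternatives were a repeated quantile normalization, median centring, weighting of arrays, each array left out, moderation with a trend or robustly, the mean of all probe sets, a block for the replicate number, a filter at percentile 40 of mean level, and the spiked-in control level as a covariate. Each other Cdc20 probe set, also for likeness, calls by the mean of all probe sets, and substrate counts with each array left out, were added after seeing the data.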

Additional observations from a re-analysis of the deposited data

How the results depend on the processing

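Limma called 0 of the probe sets at an adjusted p under 0.05 in each of the alternative fits to probe sets, with 1087 to 3203 at an unadjusted p under 0.05. With probe sets averaged per gene it called 0 of 18193 genes, with 628 unadjusted, a count added after seeing the data. The Cdc20 difference kept its sign in all 14 settings of processing other than the 2 other Cdc20 probe sets. It was -2.88 to -2.09 with single arrays left out and -2.17 with the spiked-in control level added as covariate. It was -1.05 by the mean of its probe sets, -0.58 by 1439394_x_at and -0.033 by 1416664_at, where the cause was not tested. Members with all LRC values lower numbered 1 to 3 with single arrays left out and 2, Cdc20 and Cdc23, by the mean of all probe sets. The shares of all genes in that direction were 6.93 to 9.84% and 3.19%, against 3.62% with all arrays and the brightest probe set. This count has no value with a block or covariate. In the other direction, Cdc27 had all LRC values higher without non-LRC replicate 3, and Cdc16 without LRC replicate 2. The share of all genes with that was not computed for these settings. Members with a lower LRC mean numbered 5 to 8 with single arrays left out, where 41.6 to 51.6% of all genes had one. They numbered 5 with weighting of arrays, in which LRC replicate 1 had the lowest weight (0.48), and 6 with the covariate. With single arrays left out, substrates with all LRC values lower numbered 7 to 11, with 11 without non-LRC replicate 2 (all genes, 8.1%). Substrates with a lower mean then numbered 15 to 19. All LRC values were higher for 1 substrate without non-LRC replicate 3 and for 1 without LRC replicate 2.

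Of the other members Fzr1, Ube2c, Pttg1, Cdc23 and Cdc26 kept their sign in all those 14 settings. Fbxo5 and Anapc1 kept it in 10, Cdc27 in 12 and Cdc16 in 13. With the covariate Ube2c differed by -0.075 (SE 0.78), Fbxo5 by 0.34, Cdc16 by -0.23 and Anapc1 by 0.23. With weighting of arrays Fbxo5 differed by 0.12 and Anapc1 by 0.0058. The replicate number was not taken as pairing samples: deviations of same-numbered arrays correlated by 0.08, 0.14 and 0.08, not all over 0.1, although every array correlated best with its own number. With the replicate block limma called 0 probe sets, with 2017 at an unadjusted p under 0.05, and the Cdc20 difference was -2.52 (SE 0.43). The SE of Pttg1 was 0.20 in that fit.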
